A study of Mus musculus with 2 samples.

Results

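The genes described here are 10 immediate early genes: Fos, Fosl1, Jun, Junb, Atf3, Egr1, Egr2, Ier2, Zfp36 and Dusp1. They were chosen by name as immediate early transcription factors and feedback regulators, and every named probe with one of these symbols was taken. Of the 10 genes, 9 had a named probe, 1 probe each, among 7939 genes with a named probe in all. Ier2 had no named probe and is not analysed here. Probes near background on both arrays carried no name, so a dim probe of Ier2, or a further one of another gene, could not be seen. RNA came from the mouse line SN4741, described as dopaminergic neuronal cells immortalized with a temperature-sensitive large T antigen, and the labels give growth in RF medium at 33 C. One group had overexpressed Oxi-beta for 12 h, and the other was the control at 0 h. Each group had 1 Illumina bead array that carried a pool of 3 samples, so there was no replicate array, no difference could be tested, and no spread between samples is known. How Oxi-beta was introduced and whether the control cells received an empty construct are not given in the sources used here, and no untreated array at 12 h was among the samples. Hours in culture and overexpression therefore cannot be told apart.

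Immediate early genes are transcribed within minutes of a stimulus, without new protein synthesis, when MAP kinases and other signals act on transcription factors already bound to their promoters, such as serum response factor and CREB. Their products are mostly transcription factors that pass the signal on to later genes, together with regulators that end it. Their transcripts are short-lived, so a burst is usually over within a few hours, and in neurons they serve as a record of recent activity or stress.

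The short promoters of these genes are known for the elements through which such signals act, and 4 are shown because their genes lay on opposite sides in the comparison: Fos and Junb had lower signals and Zfp36 and Dusp1 higher signals on the Oxi-beta array. Each sequence is the 250 bases before the RefSeq transcription start on build GRCm38.p6, read 5′ to 3′ along the gene, and capitals mark matches to the motifs searched.
Fos, chr12:85473640-85473889, plus strand: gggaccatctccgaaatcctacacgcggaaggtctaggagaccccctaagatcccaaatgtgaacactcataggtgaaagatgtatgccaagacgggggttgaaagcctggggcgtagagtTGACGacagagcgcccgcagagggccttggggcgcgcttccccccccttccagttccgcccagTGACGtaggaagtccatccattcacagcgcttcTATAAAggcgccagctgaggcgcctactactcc
Junb, chr8:84978749-84978998, minus strand: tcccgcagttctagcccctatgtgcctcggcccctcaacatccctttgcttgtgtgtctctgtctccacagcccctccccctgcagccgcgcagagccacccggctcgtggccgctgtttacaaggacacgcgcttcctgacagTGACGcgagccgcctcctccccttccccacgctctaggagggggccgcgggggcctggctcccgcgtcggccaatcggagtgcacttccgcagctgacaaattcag
Zfp36, chr7:28379229-28379478, minus strand: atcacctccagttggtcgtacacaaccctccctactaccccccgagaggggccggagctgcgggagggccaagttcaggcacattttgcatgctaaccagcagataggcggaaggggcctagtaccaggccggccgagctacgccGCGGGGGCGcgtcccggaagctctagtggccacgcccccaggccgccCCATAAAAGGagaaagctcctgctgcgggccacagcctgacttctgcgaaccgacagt
Dusp1, chr17:26508473-26508722, minus strand: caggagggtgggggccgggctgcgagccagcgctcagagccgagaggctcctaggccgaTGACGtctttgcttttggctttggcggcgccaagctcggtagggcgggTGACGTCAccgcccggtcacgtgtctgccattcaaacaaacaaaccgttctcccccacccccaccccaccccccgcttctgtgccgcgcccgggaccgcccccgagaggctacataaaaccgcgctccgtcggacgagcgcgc
The motifs were searched on both strands. They were the cAMP response element TGACGTCA and its half-site TGACG, which lies within the whole element, the AP-1 site TGACTCA, the EGR site GCGGGGGCG, the TATA box TATAAA and the CArG box that serum response factor binds. RefSeq promoters were available for 7 of the 10 genes, and all listed starts of a gene were searched. Dusp1 held the whole cAMP response element, 143 bases before the start, as did 1.55% of 32851 promoters. Its half-site was in a promoter of Fos, Junb, Atf3, Egr2 and Dusp1, 5 of 7 genes, in Egr2 not at the first listed start. Of all single promoters, 17.8% held it. A gene was counted if any of its starts matched, so gene counts and shares of single promoters are unlike measures. Zfp36 held an EGR site 105 bases before the start, found in 2.57% of promoters, and a CArG box 58 bases before it, found in 1.47%. A second gene with a CArG box was Egr2, at a start not shown. Fos held a TATA box, as did 12.4% of promoters, and the AP-1 site was in 0 of the 7 genes and 4.46% of all promoters. Only the 250 bases before each start were searched, so a motif not found here, such as a CArG box in Fos, may lie farther upstream. The half-site stood in Fos and Junb as well as in Dusp1, while the other matches in the sequences shown were each in 1 gene. The half-site was added to the search after the sequences had been seen.

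The comparison addressed whether immediate early transcripts stood at another level after Oxi-beta overexpression. Most differed little. The 6 genes well above background on both arrays differed by at most 1.23-fold, with Zfp36, Jun, Dusp1 and Egr1 slightly higher and Junb and Fosl1 lower on the Oxi-beta array. Fos and Egr2 were lower and no longer well above background on the Oxi-beta array. Atf3 was not well above background on either array. In RNA pooled from whole cultures, fewer cells expressing a gene and less RNA per cell cannot be told apart. A probe is called well above background, or detected, at a detection p-value under 0.01, and the lowest signal of a detected probe was 196 on the Oxi-beta array and 201 on the control array.

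**Figure D1:**
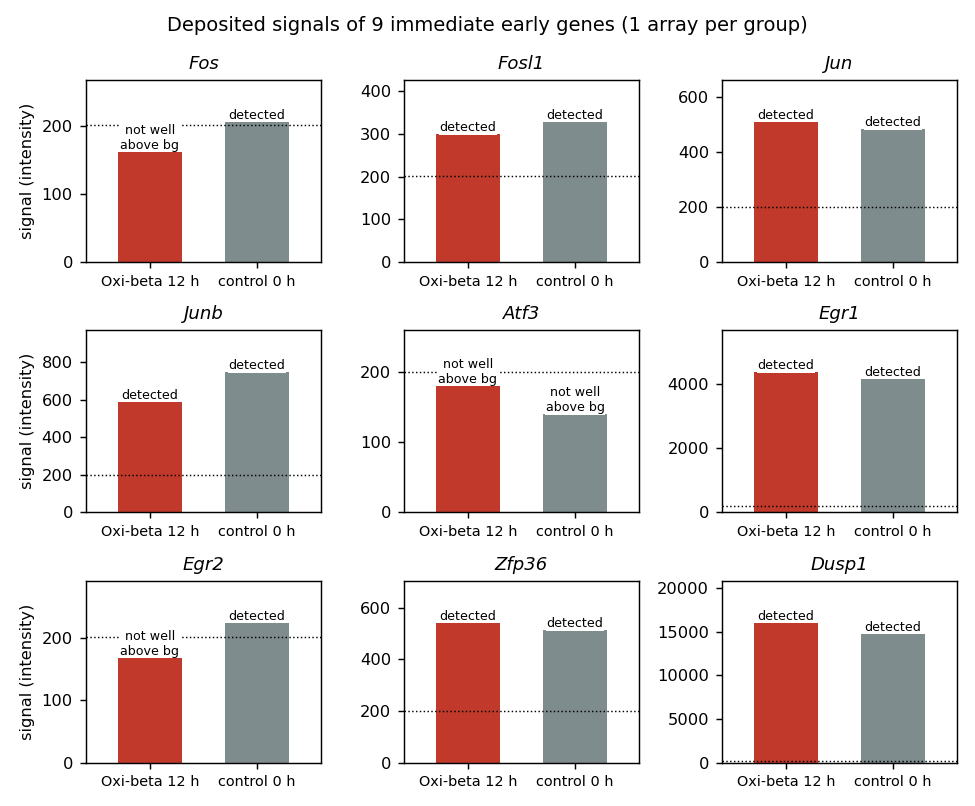
Deposited signal intensity (y axis, starting at 0 with its own scale per gene) of 9 immediate early genes on the Oxi-beta array at 12 h (red) and the control array at 0 h (grey), 1 array per group without error bars. Each bar is marked as detected or not well above background (bg), and the dotted line is the lowest detected signal of the control array, 201. Fos and Egr2 lie below that line on the Oxi-beta array and above it on the control array.

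Among the Fos family, whose proteins pair with Jun proteins to form the AP-1 factor, the probe of Fos (ILMN_2750515) had a signal of 162 on the Oxi-beta array and 206 on the control array. Its detection p-values were 0.0255 and 0.0085 on those arrays, so Fos passed the detection threshold on the control array only, and there narrowly. The fitted log2 difference after background correction and quantile normalization was -0.61, Oxi-beta minus control. As a bound against the lowest detected value, Fos was at least 1.04-fold lower on the Oxi-beta array. Fosl1 (ILMN_2649550), which encodes the Fos relative FRA-1, was detected on both arrays at signals of 299.5 on the Oxi-beta array and 329 on the control array. Its log2 difference was -0.09, and 25.7% of the 6702 genes detected on at least 1 array had a lower value.

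In the Jun family, whose proteins also form AP-1 with each other, the members lay on opposite sides. Jun (ILMN_2646625), the c-Jun gene, had signals of 510.2 on the Oxi-beta array and 483 on the control array. Its log2 difference was 0.19, or 1.14-fold higher. Junb (ILMN_1220034), which encodes a less active partner that can oppose c-Jun, had signals of 588 on the Oxi-beta array and 746 on the control array. Junb was 1.23-fold lower, a log2 difference of -0.30, and 244 of the 6702 genes had a lower value. Among the members detected on both arrays, Junb had the greatest distance from 0. The difference between Jun and Junb was not tested.

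Atf3 (ILMN_2619408), a stress-induced factor of the ATF family that can pair with Jun proteins, had signals of 181 on the Oxi-beta array and 140.0 on the control array. The detection p-values were 0.017 and 0.0645, both above the threshold, so no fold is given at that threshold. At the looser detection threshold of 0.05, Atf3 was detected on the Oxi-beta array alone. The ratio of its deposited signals, Oxi-beta over control, was 1.29, and background correction widened this to 1.72-fold by the fitted value.

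The EGR zinc finger factors also divided. Egr1 (ILMN_2662926), which binds GC-rich promoters after growth factor and synaptic signals, was clearly detected, with signals of 4375 on the Oxi-beta array and 4170.4 on the control array. Its log2 difference was 0.15, or 1.11-fold higher. Egr2 (ILMN_2623984), also named Krox20, has a part in hindbrain and Schwann cell development. Egr2 had signals of 168 on the Oxi-beta array and 224 on the control array. The detection p-values were 0.0231 and 0.0049, so Egr2 was detected on the control array only. Its fitted log2 difference was -0.71, and the bound was at least 1.20-fold lower on the Oxi-beta array.

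Both feedback regulators were slightly higher. Zfp36 (ILMN_3162407) encodes tristetraprolin, which binds AU-rich elements and speeds the decay of transcripts including those of cytokines. Its signals were 542 on the Oxi-beta array and 513 on the control array, with a log2 difference of 0.20, or 1.15-fold higher. Dusp1 (ILMN_2622983) encodes a nuclear phosphatase that switches off MAP kinases. Its signals were 16017 on the Oxi-beta array and 14762 on the control array, with a log2 difference of 0.17, or 1.12-fold higher.

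Of the 8 detected members, 2 passed 1.5-fold lower by their fitted values, Fos and Egr2, and 0 passed 1.5-fold higher. Over all 6702 genes detected on at least 1 array, 0.433% passed 1.5-fold lower and 0.582% passed 1.5-fold higher. Control-only detection held for 2 of the 8 and for 1.87% of all 6702 genes. Fos and Egr2 had been detected through the control array alone, which is where they were brighter, so a negative difference followed from how they entered the count. Of the 125 genes detected on the control array only, 18.4% passed 1.5-fold lower. With bounds in place of fitted values, 0 members passed 1.5-fold lower, against 0.104% of all genes. Among the 6 members detected on both arrays, 0 passed in either direction, where 0.0927% of 6470 genes passed lower and 0.247% higher. The median log2 difference was 0.03 over the 8 detected members, with 4 positive and 4 negative, and -0.004 over all 6702 genes. Over the 6 members detected on both arrays, which leave out Fos and Egr2, it was 0.16, with 4 positive and 2 negative, against -0.003 over all 6470 such genes. At a detection threshold of 0.05, which added Atf3, it was 0.15 over 9 members.

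**Figure D2:**
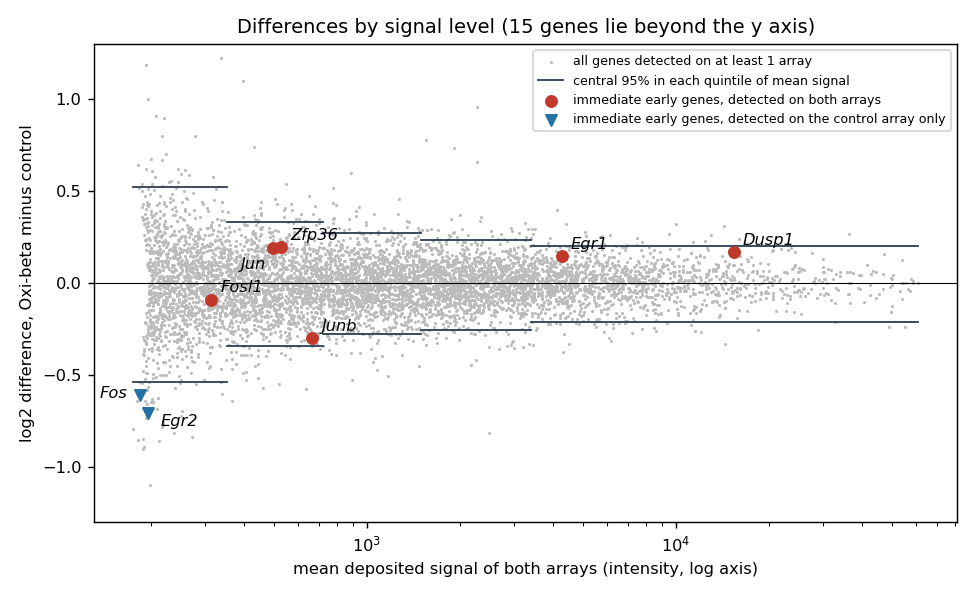
Log2 difference, Oxi-beta minus control (y axis), against the mean deposited signal of both arrays (x axis, log scale) for genes detected on at least 1 array (grey points), with immediate early genes detected on both arrays (red circles) or on the control array only (blue triangles). Horizontal lines bound the central 95% of differences in each quintile of mean signal, and 15 genes lie beyond the y axis. The red circles lie inside these lines. Fos and Egr2, whose entry through the control array alone favoured a negative value, lie below them at the dim end.

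The differences of all genes spread more widely in the dimmer quintiles, so each member was set beside genes of like signal. In the dimmest quintile of genes, which held Fos, Egr2 and Fosl1, the central 95% of log2 differences ran from -0.54 to 0.52. In the next quintile, which held Jun, Junb and Zfp36, it ran from -0.34 to 0.33, and in the brightest, which held Egr1 and Dusp1, from -0.21 to 0.20. All 6 members detected on both arrays lay inside the range of their own quintile, Dusp1 and Junb nearest to its edge, while the fitted values of Fos and Egr2 lay below theirs. Fos and Egr2 entered through the control array alone, which favoured such a place. Of the 125 genes that entered in this way, 18.4% passed 1.5-fold lower. The quintile ranges describe how probes differed between the 2 arrays and are no error of a group. Before any correction, the signal difference, Oxi-beta minus control, was -43.9 for Fos, -56.0 for Egr2 and 41.0 for Atf3. For 2519 probes with a mean signal between 150 and 250, the central 95% of such signal differences ran from -48.4 to 35.8. Fos lay inside this range, Egr2 below it and Atf3 above it.

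**Figure D3:**
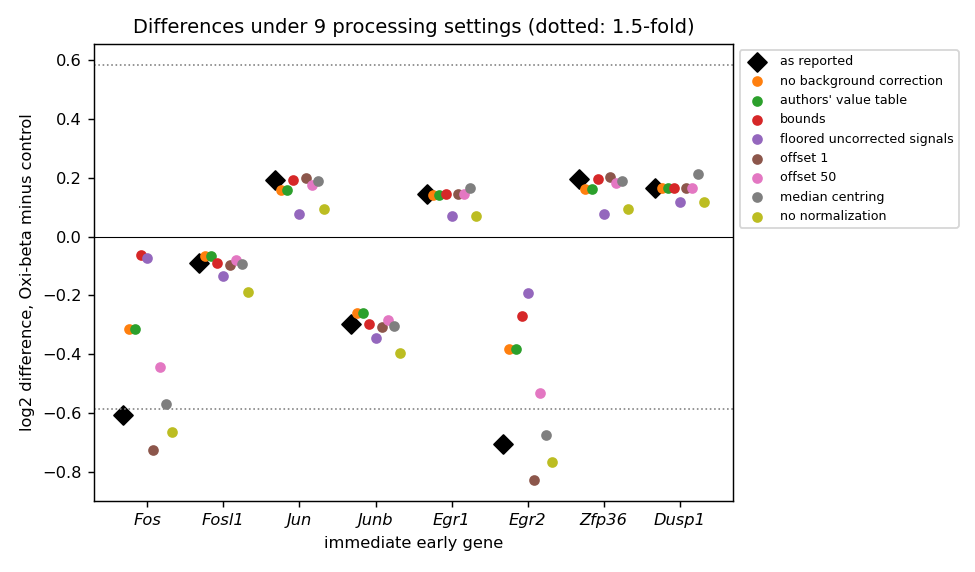
Log2 difference, Oxi-beta minus control (y axis), of the 8 detected immediate early genes (x axis) as reported (black diamonds) and under other background corrections, offsets and normalizations, with bounds or floored signals, or in the authors' own values (coloured circles); dotted lines mark 1.5-fold. Each gene kept its sign in the settings drawn, all from the same 2 arrays, while Fos ranged from -0.73 to -0.06 and Egr2 from -0.83 to -0.19.

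Each detected member kept its sign under every setting that gave it a value, and Fos and Egr2 had none where only genes detected on both arrays were kept. All settings drew on the same 2 arrays, so a kept sign is no replication. For Fos and Egr2, the sign with bounds or floored signals largely followed from their detection on the control array alone. The sizes for Fos and Egr2 moved with the background correction. In the authors' deposited table, whose values carry background, the log2 differences were -0.32 for Fos and -0.38 for Egr2, and neither reached 1.5-fold. For Junb the authors' deposited table gave -0.26, and the range over all settings was -0.40 to -0.26. The ranges were 0.08 to 0.20 for Jun, 0.08 to 0.20 for Zfp36, 0.07 to 0.16 for Egr1 and 0.12 to 0.21 for Dusp1. Probes of the same gene, over 999 genes with several detected probes, disagreed by a root mean square SD of 0.149 on the log2 scale. Each member had only 1 named probe, so no further probe of it could be set beside these values. Probes that missed the looser detection threshold of 0.05 on both arrays carried no name. Further probes of a member may lie among them.

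The other genes of the pathway were described through 7 wider lists that share some genes. Together they held 160 genes, and 94 of these were detected. By fitted values 1 passed 1.5-fold higher and 1 passed 1.5-fold lower, and their median log2 difference was 0.01. For a listed gene with several probes, the brightest named probe was taken. Values given below for single listed genes and for lists are log2 differences, Oxi-beta minus control, unless named as signals.

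Among partners of AP-1 and other bZIP factors, 13 of 21 genes were detected and 0 passed 1.5-fold. Their median was -0.04, with 10 negative and 3 positive values. The lowest values among genes detected on both arrays belonged to Jdp2, a repressor that dimerizes with Jun proteins, at -0.21, and Jund, the third Jun gene, at -0.19. The signals of Jund were 442 on the Oxi-beta array and 518 on the control array. The highest were Cebpb, a factor of inflammatory and metabolic genes, at 0.11, and Atf5 at 0.03.

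Other immediate early transcription factors were detected for 17 of 24 genes, with 0 past 1.5-fold and a median of 0.03. Csrnp1, a nuclear protein induced by AXIN1, was highest at 0.32, with signals of 615 on the Oxi-beta array and 539 on the control array. Irf1, a factor that interferon also induces, followed at 0.29. Hes1, the Notch-responsive repressor, was lowest at -0.29, with signals of 899 on the Oxi-beta array and 1157 on the control array. Srf, the serum response factor that drives Fos and Egr1, was at -0.16.

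The list of other immediate early effectors had 23 of 31 genes detected, all on both arrays. Of these, 18 were positive and 5 negative, with a median of 0.04 and 0 past 1.5-fold. Over all genes tested, 51% had a negative difference. Cxcl1, a chemokine that attracts neutrophils, was highest at 0.46, with dim signals of 284 on the Oxi-beta array and 238 on the control array. Plk2, a kinase induced by synaptic activity, was at 0.23. Vegfa, the angiogenic growth factor, was lowest at -0.20, and Ccn2, the matricellular protein CTGF, was at -0.15.

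Feedback on MAP kinases beyond Dusp1 was read from 7 detected genes of 16. Their median was -0.02, or 0.03 over the 6 detected on both arrays, and 0 passed 1.5-fold. Dusp14 was highest at 0.14, followed by Errfi1, an inhibitor of EGF receptor signalling, at 0.11. Dusp6, a cytoplasmic phosphatase specific for ERK, was at -0.12 with signals of 3487 on the Oxi-beta array and 3968 on the control array, and Dusp8 was also at -0.12. The Sprouty and Spred genes were undetected or had no named probe. A probe carried a name only where its detection p-value was under 0.05 on an array, so an undetected and a missing probe look the same here.

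Upstream MAP kinases and cofactors of serum response factor were detected for 15 of 32 genes, with a median of -0.09. Mapk8 and Creb1 entered through the control array alone. Over the 13 genes detected on both arrays, the median was 0.004. Mapk8, which encodes the Jun kinase JNK1, had signals of 165 on the Oxi-beta array and 220 on the control array and was detected on the control array only. It was the 1 listed gene past 1.5-fold lower by its fitted value, -0.73, and its bound was at least 1.18-fold lower. Crebbp, the acetyltransferase that CREB recruits, was highest at 0.47. Its 2 detected probes gave 0.44 and 0.47. Map2k4, a kinase that activates JNK, was at 0.13, Map2k1, the MEK1 gene, at -0.24 and Rps6ka5, the kinase MSK1, at -0.21.

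Known targets of AP-1 and EGR factors were detected for 14 of 24 genes, 7 positive and 7 negative, with a median of -0.02 and 0 past 1.5-fold. Ccnd1, the cyclin D1 gene, was highest at 0.31, with signals of 15668 on the Oxi-beta array and 13054 on the control array. Its 4 detected probes ran from 0.15 to 0.42. Plaur, the urokinase receptor, was at 0.28. Tgfb1 was lowest at -0.34 and Thbs1, the matrix protein thrombospondin, was at -0.27.

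The family of Zfp36 and its partners in mRNA decay had 9 of 16 genes detected, with a median of 0.02. Ddx6, a helicase of cytoplasmic granules that store and decay mRNA, was the 1 gene past 1.5-fold higher, at 1.58-fold, with signals of 2712 on the Oxi-beta array and 1850.2 on the control array. Of its 2 named probes, only this one was detected on both arrays, so the value rests on a single probe. The nuclease gene Xrn1 was at 0.02. Ywhab, a 14-3-3 protein, was lowest at -0.22, and Cnot7, a deadenylase subunit, was at -0.10.

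**Figure D4:**
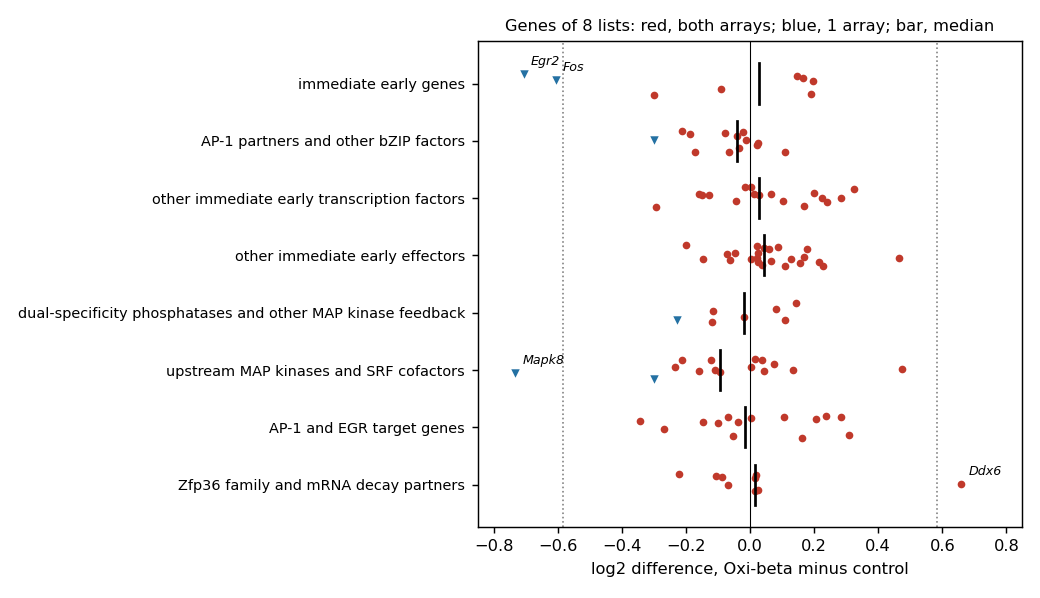
Log2 difference, Oxi-beta minus control (x axis), of each detected gene in the immediate early genes and the 7 wider lists (rows). Red circles are genes detected on both arrays, blue triangles genes detected on 1 array, black bars list medians and dotted lines 1.5-fold; vertical scatter within a row has no meaning. List medians, with genes detected on 1 array included, lie between -0.09 and 0.04, and Fos, Egr2, Mapk8 and Ddx6 lie beyond 1.5-fold.

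The arrays were alike in sensitivity, with 35.7% of 24613 probes detected on the Oxi-beta array and 35.8% on the control array. Of 16 dopaminergic markers, 4 were detected (Nr4a2, Foxa2, En1 and Gch1), all with higher values on the Oxi-beta array and a median of 0.14. Their summed signal, without normalization, was only 1361 on the Oxi-beta array and 1315 on the control array. Foxa2, Gch1 and Nr4a2, at 0.10, 0.14 and 0.24, lay inside the range given above for the dimmest quintile, -0.54 to 0.52. En1, at 0.15, lay inside that of the next quintile, -0.34 to 0.33. Only these 4 of the 16 had a named probe, so Th, Slc6a3, Slc18a2, Ddc, Pitx3, Drd2 and the rest could not be read. The fibroblast and mesenchymal markers given next were far brighter. The labelled dopaminergic identity was therefore not shown by these markers. Of 13 fibroblast and mesenchymal markers, 7 were detected, all with lower values on the Oxi-beta array and a median of -0.13. Their summed signal, without normalization, was 96798 on the Oxi-beta array and 107013 on the control array. The brightest was Vim, with signals of 40776 on the Oxi-beta array and 44580 on the control array. Pdgfrb, at -0.40, lay below the range of the middle quintile, -0.28 to 0.27. Sparc, at -0.30, lay below that of the brightest quintile, -0.21 to 0.20. The other detected fibroblast and mesenchymal markers lay inside the ranges of their quintiles. Before normalization, the median signal of all detected probes was also lower on the Oxi-beta array, 896 against 950. The log2 differences of the markers are normalized values. Pan-neuronal markers were detected for 6 of 16 genes, 4 higher and 2 lower, with a median of 0.14. Among the higher ones, Tubb3 and Nefm were detected on the Oxi-beta array only, so a positive difference followed from how they entered. Over the 4 pan-neuronal genes detected on both arrays, the median was -0.04. Ncam1, at -0.39, lay below the range of its quintile, -0.34 to 0.33, and the others of these 4 lay inside theirs. Astrocyte markers were detected for 3 of 8 genes, 2 higher and 1 lower. The lower astrocyte gene was Slc1a3, a glutamate transporter, detected on the control array only at a fitted value of -0.63 and a bound of at least 1.34-fold lower. Markers of oligodendrocytes, myeloid cells and endothelium were detected for 1 gene each of 7, 7 and 6, with positive normalized log2 differences. The part of these markers in the differences of immediate early genes was not tested. Oxi-beta is a name used for Tnfaip8l1, a gene of the TIPE family, and 0 probes were named Tnfaip8l1, so the overexpression itself was not checked here.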

How the data were processed

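Signals of 24613 probes on 2 single-colour Illumina arrays were used. Per the file headers, the deposited table gives every probe a non-normalized signal intensity with its detection p-value. The column named as test was assigned to Oxi-beta, there being no further sample besides the control. The authors' value table ties its columns to samples and followed this assignment (r = 0.99998 with the same array, at most 0.9962 with the other). The submitters' processing notes name BeadStudio. The authors' deposited log2 values of 11090 probes, each below a detection p-value of 0.05 on 1 array or both, lay within 0.001 of quantile-normalized, uncorrected log2 signals for 21584 of 22180 values, and within 0.084 for the rest. That scale is read from the values and stated by no label.

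Signals were background-corrected with limma 3.58.1 in R 4.3.3 (nec, with controls inferred from detection p-values and an offset of 16). Quantile normalization and log2 followed, and the steps were tested on simulated data. Probes were named through the platform annotation (9762 with 1 symbol, 1328 with none, 0 with several), and 9757 matched RefSeq by Entrez identifier. For each gene the brightest named probe (mean of both arrays) was used, and the gene entered the counts if either array detected this probe. A bound sets the dim array at the higher of its lowest detected value and the probe's own value. It stands on the background-corrected scale. With so few arrays the precision of all values is limited. Members, lists and alternatives were chosen with earlier results of these data known. Text names every member, and per list the 2 highest and 2 lowest genes detected on both arrays plus any past 1.5-fold. No test was run, since each group had 1 array. Alternatives changed the background, offset, normalization, detection threshold, probe rule, treatment of genes detected on 1 array and fold threshold.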

Additional observations from a re-analysis of the deposited data

How the results depend on the processing

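The 8 detected immediate early genes kept their sign under each alternative that gave them a value, all drawn from the same 2 arrays. Fos and Egr2 had none with genes detected on both arrays only. Without background correction, with the authors' values, with an offset of 50, with bounds, with genes detected on both arrays only, with floored uncorrected signals and at a 2-fold threshold, 0 of them passed the threshold lower, against 2 as reported. Median centring left 1, Egr2. A detection threshold of 0.05 gave 1 gene higher, Atf3, also with bounds (a combination chosen after seeing the data), and still 2 lower, since Fos and Egr2 were then detected on both arrays. Atf3 entered through the Oxi-beta array alone, where it was brighter, so a positive difference followed from how it entered. Over all 7939 genes at that threshold, 78 passed higher and 69 lower, and with bounds 48 and 43. The members' median moved from 0.03 to -0.06 without between-array normalization, where the median of all genes was -0.09, and to -0.001 with floored signals. It was 0.16 with genes detected on both arrays only and 0.15 at a detection threshold of 0.05. In the wider lists, 2 genes passed as reported and 3 at a detection threshold of 0.05. Without background correction, with the authors' values, with an offset of 50, without between-array normalization, with bounds and with genes detected on both arrays only, 1 passed. With floored signals and at 2-fold, 0 passed, and at the lower fold threshold 6 did. Over all genes, 29 passed 1.5-fold lower as reported and 2 without background correction, against 39 and 22 higher. A log2 value was taken as moved when it changed by more than 0.149, the disagreement between probes, since no spread between samples is known. No paired analysis was possible because each group had 1 array. Signal over background limits what can be said of Fos, Egr2 and Atf3.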
